A study of Mus musculus with 6 samples.

Results

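The mRNAs described here encode the proteins of the cytosolic ribosome. They were chosen by symbol, as genes named Rpl or Rps with a number and at most 1 letter and digit after it, together with the Rplp genes and Rpsa. Of the 18193 genes with a probe set of their own on the array, 49 met this rule, 26 of the large and 23 of the small subunit, read by 105 probe sets. The brighter 9097 genes were tested, and 44 of the 49 members, 23 large and 21 small subunit genes, were among them. The study measured RNA from mouse hippocampus on 6 Affymetrix 1-colour arrays. On 3 arrays the RNA came from protein-G beads with anti-myc antibody, which recovers transgenic HuD, on 2 from protein-G beads carrying non-immune IgG, and on 1 from the total input. The labels give the tissue and the kind of beads only. The strain, the age, the promoter that drives the transgene, the genotype behind the IgG and input arrays and whether animals were pooled are not given in the sources used here.

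HuD, encoded by Elavl4, is a neuronal RNA-binding protein of the ELAV family that binds U-rich and AU-rich stretches of mRNA. A ribosome is built from a large and a small subunit, each made of ribosomal RNA and of many small basic proteins present in about 1 copy each. The mRNAs of these proteins are abundant and short, and most begin with a terminal oligopyrimidine stretch, a C followed by a run of C and T, through which growth signals control their translation as a group. In neurons many of them are also found in dendrites and axons.

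Values are the deposited linear signals, scaled by the authors so that the mean signal without the lowest and highest 2% was 150 on all 6 arrays. Differences are on the log2(signal + 32) scale, which understates the change of dim genes, with the standard error after ±, and "fell" or "rose" is used for genes with an adjusted p under 0.05 in limma with Benjamini-Hochberg adjustment over the 9097 tested genes. Arrays are numbered in the order of deposit. The labels do not say that arrays of a group came from separate preparations, so the p-values reflect only how far these arrays differ from one another, which could be technical variation. Through this scaling every difference is relative to the other RNAs of that array. Elavl4 RNA had signals of 2294.1, 2010.1 and 1688.9 on the HuD arrays, 765.9 and 642.1 on the IgG arrays and 597.3 in the input, so it was higher in the pulldowns labelled HuD. In the input, 7 of 8 markers of hippocampal neurons and 4 of 4 of astrocytes lay above the array's median, against 0 of 2 of liver and 0 of 2 of heart. No detection calls were used, so no gene is called absent.

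HuD pulldowns held relatively less ribosomal protein mRNA than IgG pulldowns. Of the 44 tested members 34 fell, 0 rose and 10 did not pass the threshold, with adjusted p-values between 0.000194 and 0.0419 for those that fell. At the unadjusted level 36 were lower and 0 higher, where 37.9% of all tested genes were lower and 23.9% higher. Among all tested genes 34% fell and 21.5% rose in this comparison, 55.5% in either direction. The median log2 difference of the members was −1.37, against −0.28 for all tested genes. The falls ranged from 1.57-fold for Rps29 to 7.58-fold for Rpl41. For 33 members all 3 HuD arrays lay below both IgG arrays, which held for 43.1% of all tested genes. Of the 23 large subunit genes 19 fell, with a median of −1.39, and of the 21 small subunit genes 15 fell, with a median of −1.24. The difference between the subunits was not tested, since genes are not replicates of a condition.

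The pulldown arrays measured RNA bound to beads and not bulk tissue RNA. For a marker that is lower there, fewer cells of a type, less RNA per cell and less recovery on the beads cannot be told apart. Of the markers of other cell types, the 4 microglial genes summed to 1116.4 to 1587.2 on the HuD arrays, 2366.2 to 3621.3 on the IgG arrays and 3813.1 in the input, with 3 of 4 lower in HuD against IgG. The 4 astrocyte genes summed to 4948.3 to 6196.6, 11885.5 to 12865.5 and 10951.7, with 3 of 4 lower. The 3 oligodendrocyte genes summed to 9106.3 to 13209.4, 13363.4 to 20528.9 and 11818.7, with 2 of 3 lower. Of 2 endothelial genes, which summed to 41.1 to 60.3, 133.3 to 195.9 and 104.8, 1 was tested and was lower. The 2 choroid plexus genes summed to 11922.6 to 15086.6, 16064.6 to 18481.2 and 9131.2, so the HuD sums lay above the input, with 0 of 2 lower or higher. The 8 neuronal genes summed to 26688.3 to 30192.6, 17436.9 to 20728.9 and 17718, with 0 of 7 tested lower and 2 higher. Beside all of these counts, 34% of all tested genes were lower and 21.5% higher in HuD against IgG. The part of these cell types in the ribosomal values was not tested.

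**Figure D1:**
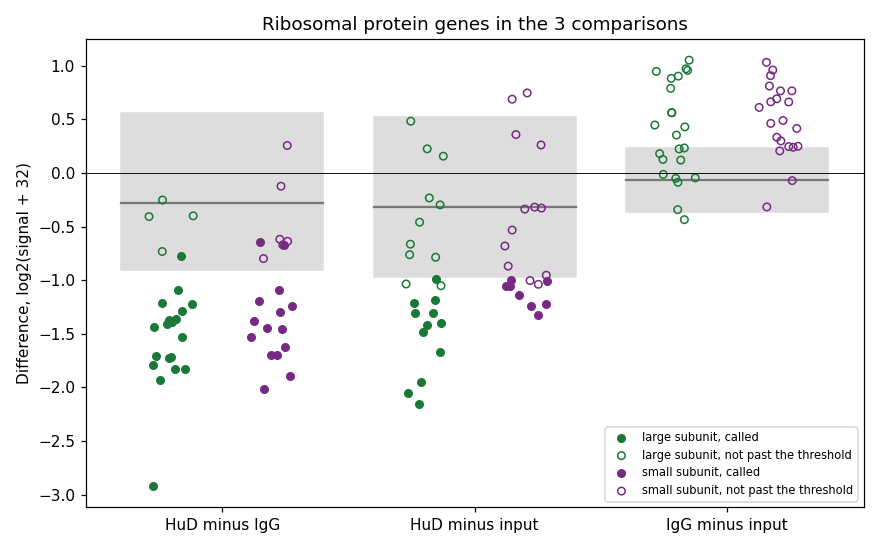
Difference of each tested ribosomal protein gene on the log2(signal + 32) scale in the 3 comparisons, with filled points for genes past the threshold and open points for the others, large subunit in green and small subunit in purple. Grey boxes span the middle 50% of all tested genes and the grey line is their median. The members lie mostly below the line in both comparisons of HuD (medians −1.37 and −1.003) and mostly above it for IgG minus input (median 0.44).

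Of the large subunit genes, each read by its brightest probe set, Rpl41, which encodes a very short and strongly basic peptide, differed most. Its signals were 1403.4, 1580.2 and 791.4 on the HuD arrays, 6946.3 and 12613.8 on the IgG arrays and 4753.2 in the input. All HuD arrays were below all others, and the difference between HuD and IgG was −2.92 ± 0.34 (adjusted p = 0.000194). Its other probe sets were at −2.46, −0.77 and −0.40, and 2 of its 4 were called lower in a fit over probe sets. Those 2 have the letter x in their names, which marks probes that can match other sequences. The others were dim, with signals of 9.3 to 88.8 and 8.6 to 36.4. With the probe sets of a gene averaged, Rpl41 was at −1.64 and Rplp2 at −1.93. The ribosomal stalk, a flexible protein arm that calls translation factors to the ribosome, is read here through Rplp0 and Rplp2. Rplp2 gave 2212.0, 2130.4 and 1964.1 on the HuD arrays, 6946.2 and 9478.7 on the IgG arrays and 4189.1 in the input. Its groups did not overlap, and it fell 3.82-fold (−1.93 ± 0.23, adjusted p = 0.000232). Rplp0, the base of the stalk, gave 283.1, 593.4 and 232.7 with HuD, 1170.3 and 1236.5 with IgG and 1637.6 in the input. It was lowest with HuD and highest in the input, and fell 3.31-fold against IgG (−1.72 ± 0.35, adjusted p = 0.00226).

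Rpl8, a protein close to the site where peptide bonds form, gave 1119.2, 1067.4 and 983.8 with HuD, 3341.3 and 4157.4 with IgG and 3425.0 in the input. The IgG arrays and the input lay together and the HuD arrays apart from them, a 3.46-fold fall (−1.79 ± 0.24, adjusted p = 0.000311). Rpl4, whose protein lines part of the tunnel for the nascent chain, had 689.4, 1423.9 and 615.1 with HuD, 3156.5 and 2566.8 with IgG and 3615.2 in the input. HuD array 2 was the highest of its group and still below every other array (−1.71 ± 0.34, adjusted p = 0.00206). Rpl11, which can also bind the p53 regulator Mdm2 outside the ribosome, had 580.5, 585.1 and 613.6 with HuD, 1472.8 and 2789.1 with IgG and 1719.9 in the input. Its HuD arrays differed by less than its IgG arrays did (−1.72 ± 0.29, adjusted p = 0.00100). Rpl19 fell by 1.83 ± 0.32 and Rpl37 by 1.83 ± 0.44 on the log2 scale. For Rpl37 the IgG arrays themselves stood apart, at 400.7 and 1426.8, against 183.3, 142.0 and 268.4 with HuD and 427.2 in the input. The other 11 large subunit genes that fell did so by 0.77 to 1.53 on the log2 scale.

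Of the small subunit genes, Rps15, whose protein sits in the head of the subunit, fell most. Its signals were 1280.7, 1576.5 and 996.4 with HuD, 3913.8 and 6897.9 with IgG and 2652.8 in the input, with no overlap (4.04-fold, −2.01 ± 0.30, adjusted p = 0.000523). Rps10, one of the genes mutated in Diamond-Blackfan anaemia in humans, had 1161.1, 988.5 and 1391.7 with HuD, 2729.1 and 7155.4 with IgG and 2778.2 in the input. IgG array 1 was close to the input, and IgG array 2 far above both (−1.89 ± 0.36, adjusted p = 0.00167). Rpsa, also known as the laminin receptor gene, had 2187.6, 2423.7 and 2500.1 with HuD, 6482.9 and 8331.4 with IgG and 4796.2 in the input. The order was the same on every array, with HuD below input and input below IgG (−1.62 ± 0.23, adjusted p = 0.000401). Rps9 fell by 1.70 ± 0.29, Rps24 by 1.70 ± 0.32 and Rps3a1 by 1.53 ± 0.28 on the log2 scale. The other 9 small subunit genes that fell did so by 0.65 to 1.45, among them Rps19, the gene most often mutated in Diamond-Blackfan anaemia, at −1.45 ± 0.34.

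**Figure D2:**
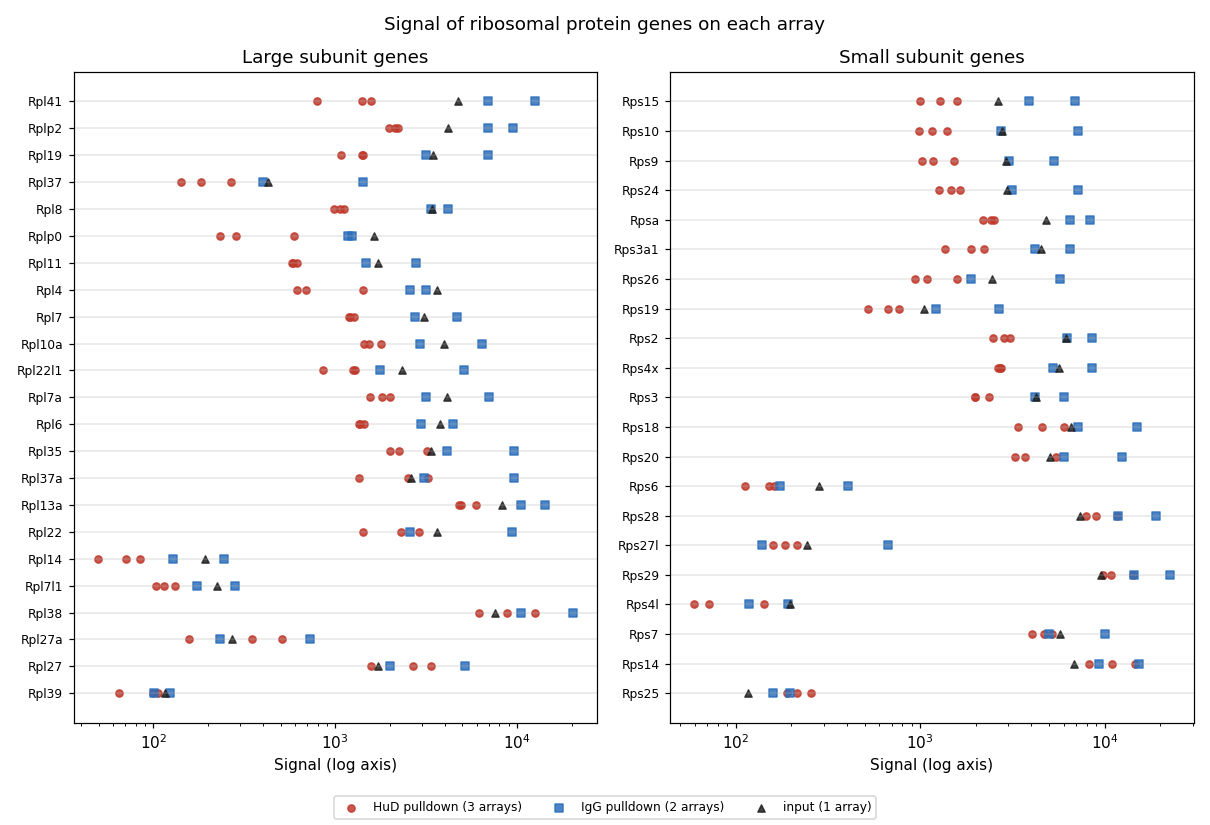
Signal (log axis) of the 44 tested ribosomal protein genes on each array, with 3 HuD arrays (red circles), 2 IgG arrays (blue squares) and the input (black triangle), sorted by the difference between HuD and IgG. For Rpl41 and Rps15, at the top, HuD arrays lie left of all others, and for Rps25 and Rpl39, at the bottom, the groups overlap.

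The 10 members that did not pass the threshold came from both subunits, 4 large and 6 small. Rps25, a protein needed for some cap-independent initiation, was the 1 member with a positive difference, at 0.26 ± 0.26 (adjusted p = 0.408). Its signals were 213.6, 188.7 and 255.3 with HuD, 196.6 and 159.0 with IgG and 116.7 in the input, and the pulldown groups overlapped. Rps14, which encodes a protein of the platform of the small subunit, had 8276.9, 14680.0 and 10947.4 with HuD, 9364.1 and 15318.4 with IgG and 6808.8 in the input. Both pulldowns were above the input and they overlapped (−0.12 ± 0.28, adjusted p = 0.726). Rpl27 (−0.40 ± 0.40), Rpl27a (−0.41 ± 0.48) and Rpl39 (−0.25 ± 0.26) had overlapping groups as well. Rps6, the target of S6 kinases and a common readout of growth signalling in neurons, was at −0.80 ± 0.33 (adjusted p = 0.059), with 151.5, 112.2 and 161.8 with HuD, 172.5 and 407.6 with IgG and 282.9 in the input. Its HuD arrays were all below its IgG arrays, but IgG array 1 was only slightly higher. Rpl38, whose loss in mice alters the body plan, was at −0.73 ± 0.33 (adjusted p = 0.0762) and Rps7 at −0.62 ± 0.29 (adjusted p = 0.0879). A second, dimmer probe set of Rps7 was at −1.19 ± 0.24 and was called lower in a fit over probe sets (adjusted p = 0.0148).

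Among the members with high signals, Rps29 and Rps28 had small differences. Rps29 had 10854.4, 9854.1 and 14213.9 with HuD, 14407.8 and 22548.1 with IgG and 9583.2 in the input, and the value on IgG array 2 was the highest signal of that array. Rps28 had 8950.1, 7964.7 and 11613.6 with HuD, 11815.8 and 19047.4 with IgG and 7314.5 in the input. Both fell against IgG (−0.65 ± 0.24 and −0.67 ± 0.25) but lay above the input on all 3 HuD arrays. For each gene 0 of 3 probe sets were called lower in a fit over probe sets. Each fell under only 6 of 14 other settings of the fit. Over the 44 members the difference between HuD and IgG and the mean log2 signal had a Spearman's rho of 0.06 and a Pearson's r of −0.22, a description across genes that share the same arrays. The 15 brightest members had a median of −1.23, the 14 in the middle −1.53 and the 15 dimmest −1.09.

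Some ribosomal proteins have paralogs that can take the place of the standard protein in particular tissues, and of the 4 that were tested 2 fell, where 34% of all tested genes did. Rpl22l1 fell (−1.41 ± 0.39, adjusted p = 0.0102), with 1275.9, 861.0 and 1251.9 with HuD, 1768.3 and 5077.1 with IgG and 2340.5 in the input. Its only probe set did not pass in a fit over probe sets (adjusted p = 0.0564), and Rpl22l1 fell under 11 of 14 other settings. Its partner Rpl22 fell by 1.21 ± 0.46 although HuD array 3 (2896.3) was above IgG array 1 (2588.1). For Rpl22, 0 of 3 probe sets were called lower in a fit over probe sets, and the gene fell under only 7 of 14 other settings. Rpl7l1, a nucleolar relative of Rpl7, fell (−0.77 ± 0.27, adjusted p = 0.0309), but 0 of its 3 probe sets were called lower in the fit over probe sets, and the call was lost under 8 of 14 other settings. Rpl7 itself fell by 1.53 ± 0.27 and had 3 of 3 probe sets called lower. Rps4x, the standard protein, fell (−1.30 ± 0.25, adjusted p = 0.00173), and its paralog Rps4l was at −0.64 ± 0.32 (adjusted p = 0.110) with overlapping groups. Rps27l, a p53 target, was at −0.67 ± 0.47 (adjusted p = 0.237), and its IgG arrays gave 138.2 and 670.6, on either side of the HuD range of 158.8 to 214.5. The muscle paralog Rpl3l had signals of 1.8 to 7.4, the testis paralog Rpl39l 8.2 to 26.0, and neither was tested. The other untested members were Rpl12 (5.2 to 55.5), Rps16 (0.3 to 8.0) and Rps27 (23.2 to 138.0). Paralogs and pseudogenes of near-identical sequence may contribute to one signal, and these values are uncertain for that reason.

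The size of the fall depended on which IgG array stood as the control. On IgG array 2, 41 of 44 members had a higher signal than on IgG array 1, with a median log2 difference of −0.84 for array 1 minus array 2, whereas the median over all tested genes was 0.00 and 50% of them were lower. Against IgG array 1 the mean of the HuD arrays was lower for 39 of 44 members, with a median of −0.88, and against IgG array 2 for 43 of 44, with a median of −1.74. The medians of all tested genes were −0.27 and −0.24. Without IgG array 2, 25 members fell, 24 of them among the 34, with a median of −0.88, where 32% of all tested genes fell, and the lone IgG array was then assumed to vary like the other groups. The 10 that lost their call without it were Rpl14, Rpl22, Rpl22l1, Rpl37a, Rpl7l1, Rps18, Rps20, Rps26, Rps28 and Rps29, at differences of −0.70 for Rpl14 to −0.29 for Rpl22. Without IgG array 1, 39 members and 29% of all tested genes fell. Without HuD array 1 these were 28 members and 21.8%, without HuD array 2 they were 27 and 29%, and without HuD array 3 they were 34 and 26.7%. Rpl41, Rplp0, Rplp2, Rpl8, Rpl4, Rpl11, Rpl19, Rpl37, Rps15, Rps10, Rps9, Rps24, Rpsa and Rps3a1 were among 23 members that fell under each of 14 other settings of the fit, those that left out 1 array included. The titles of the arrays end in le1 or e1_le1, a suffix the labels do not explain. Within le1, HuD array 1 minus IgG array 1 had a members' median of −0.88, and within e1_le1, the other HuD arrays minus IgG array 2 had −1.70.

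**Figure D3:**
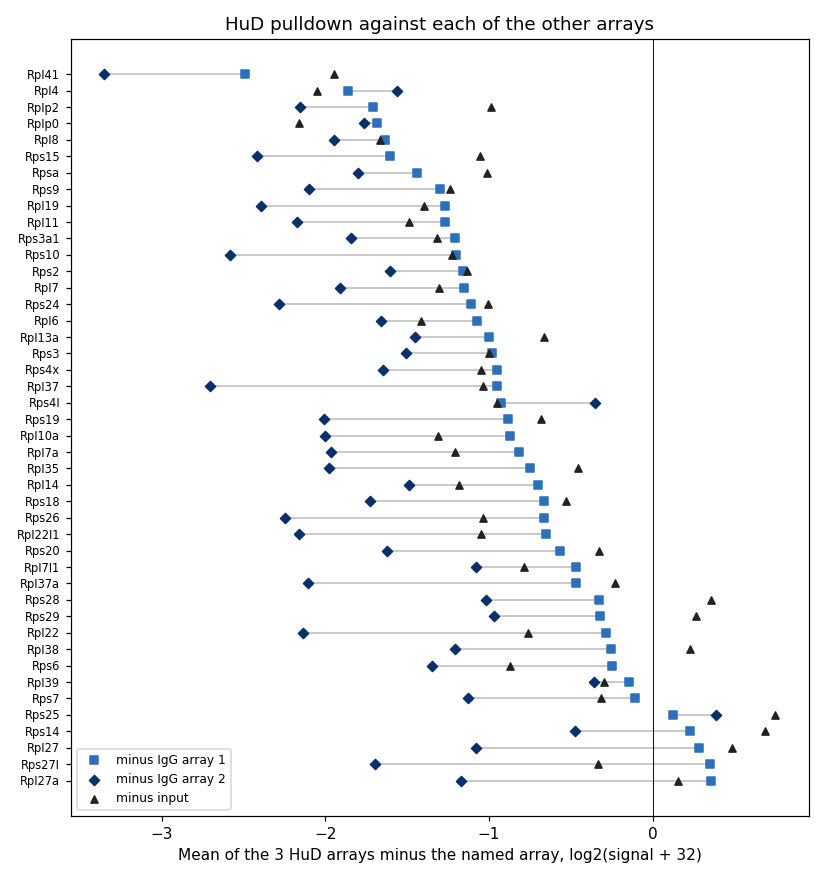
Mean of the 3 HuD arrays minus IgG array 1 (blue squares), IgG array 2 (dark diamonds) and the input (black triangles) for the 44 tested ribosomal protein genes, on the log2(signal + 32) scale. The values against IgG array 2 (median −1.74) lie mostly left of those against IgG array 1 (median −0.88), and the input values (median −1.003) are closer to IgG array 1.

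Compared with the input, 20 of 44 members fell with HuD, 0 rose and 24 did not pass, where 25.9% of all tested genes fell and 15.7% rose, 41.6% in either direction. At the unadjusted level 24 were lower and 1 higher, where 32.4% of all tested genes were lower and 19.3% higher. The median log2 difference was −1.003, against −0.32 for all tested genes. All 20 had also fallen against IgG, but both comparisons share the HuD arrays. The input was 1 array, whose spread was assumed to be that of the pulldowns. The largest falls were those of Rplp0 (4.47-fold, −2.16 ± 0.44, adjusted p = 0.00484), Rpl4 (4.15-fold, −2.05 ± 0.43), Rpl41 (3.86-fold, −1.95 ± 0.43), Rpl8 (3.18-fold, −1.67 ± 0.30) and Rpl11 (2.80-fold, −1.49 ± 0.37). Of the large subunit genes 12 fell and of the small subunit genes 8. The largest positive differences, none past the threshold, were those of Rps25 (0.75 ± 0.32), Rps14 (0.69 ± 0.35), Rpl27 (0.48 ± 0.51), Rps28 (0.36 ± 0.32) and Rps29 (0.26 ± 0.31). This count was less steady than the one against IgG. It was 10 without HuD array 1, 5 fell and 1 rose when arrays were centred on their 75th percentile, and 8 fell when dim genes were kept in the test.

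Between IgG and input 0 members passed the threshold in either direction, as did 0.022% of all tested genes. At the unadjusted level 0 members were lower and 4 higher, where 3.65% of all tested genes were lower and 3.4% higher. The difference was positive for 36 of 44 members and for 4002 of all 9097 tested genes, with medians of 0.44 and −0.07. The largest values were those of Rpl37a (1.05 ± 0.61), Rps28 (1.03 ± 0.34), Rpl41 (0.97 ± 0.45), Rps15 (0.96 ± 0.40) and Rpl38 (0.96 ± 0.44). At the other end were Rplp0 (−0.44 ± 0.47), Rpl4 (−0.34 ± 0.45), Rps4l (−0.32 ± 0.43), Rpl14 (−0.09 ± 0.40) and Rps6 (−0.07 ± 0.45). The 2 IgG arrays differed here. IgG array 1 minus input had a members' median of −0.03, with 25 of 44 lower, near the 55.2% of all tested genes that were lower. IgG array 2 minus input had a members' median of 0.93, with 3 of 44 lower, where 55.2% of all tested genes were lower.

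Other genes of the translation machinery were compared in the same fit. Fau, which encodes a small subunit protein fused to a ubiquitin-like domain and has no ribosomal symbol, gave 496.2, 619.7 and 484.1 with HuD, 1800.1 and 2985.0 with IgG and 1135.8 in the input. Its groups did not overlap and it fell (−2.06 ± 0.28, adjusted p = 0.000372). Of 73 tested mitochondrial ribosomal protein genes 53 fell and 4 rose, with a median of −1.13, where 34% of all tested genes fell and 21.5% rose. Mrpl11 fell by 2.22 ± 0.29 on the log2 scale, while Mrpl1 rose (2.61 ± 0.32), with 584.0, 1130.3 and 572.8 on the HuD arrays against 97.8 and 86.6 on the IgG arrays and 78.8 in the input, and Mrpl35 rose (2.52 ± 0.29). None of the 44 cytosolic members rose, and their highest difference was 0.26. Against the input the mitochondrial genes had a median of −1.23, and IgG minus input a median of −0.05.

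Of 44 tested translation factors 23 fell and 10 rose, with a median of −0.83, where 34% of all tested genes fell and 21.5% rose. The part that rose was thus near the share of all tested genes. Eif3c, a subunit of the scaffold that joins the small subunit to mRNA, fell by 2.37 ± 0.29, and Eef1d, of the elongation factor exchange complex, fell by 2.22 ± 0.26. The cap-binding protein gene Eif4e rose (2.10 ± 0.27), with 4054.1, 4755.7 and 4692.5 with HuD, 786.9 and 1320.3 with IgG and 1192.5 in the input. Of 36 tested ribosome assembly factors 22 fell and 1 rose, with a median of −0.94, against the same shares of all tested genes. Polr1c, a subunit shared by RNA polymerases, fell by 1.96 ± 0.28, Sbds, which helps to release the large subunit for translation, fell by 1.76 ± 0.27, and Rrn3, which starts ribosomal RNA transcription, rose (1.68 ± 0.26).

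**Figure D4:**
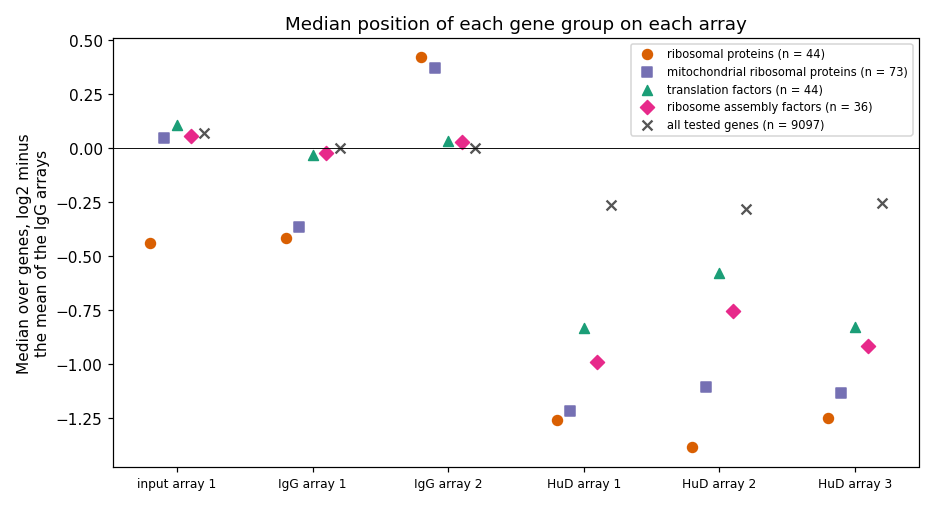
Median over the genes of each group, on each array, of the log2(signal + 32) value minus the mean of both IgG arrays, with orange circles for cytosolic and violet squares for mitochondrial ribosomal genes, green triangles for translation factors, pink diamonds for assembly factors and crosses for all tested genes; the IgG arrays mirror each other by construction. The cytosolic ribosomal genes lie at −1.26, −1.39 and −1.25 on the HuD arrays, at −0.42 and 0.42 on the IgG arrays and at −0.44 in the input, while all tested genes stay between −0.28 and 0.07.

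A member could be read by up to 6 probe sets, and 24 members had more than 1. Of the 105 member probe sets 47 were called lower and 3 higher in a fit over all probe sets with 1 symbol, where 10.4% were called lower and 7.11% higher. Above the brightness split used for genes, 47 of 83 were lower and 2 higher, against 20.6% and 16.8% of all. All probe sets of Rpl13a (4 of 4), Rpl7 (3 of 3) and Rps15 (2 of 2) were called lower, as were 5 of 6 of Rps10 and 4 of 6 of Rpl35. The 3 probe sets called higher belonged to Rps20 and Rps3, each of which also had a probe set called lower. For Rps20, 2 bright probe sets were at −1.09 ± 0.37, not past the threshold among probe sets, and −1.38 ± 0.40 (adjusted p = 0.0496), and 2 dim ones rose. One of the dim ones gave 109.7, 142.8 and 109.7 with HuD, 35.4 and 31.6 with IgG and 35.3 in the input (1.22 ± 0.25, adjusted p = 0.0166), and the other 68.6, 88.8 and 72.8 with HuD, 17.5 and 10.6 with IgG and 23.3 in the input (1.24 ± 0.25, adjusted p = 0.0148). In both the HuD arrays were above all others.

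Rps3, whose protein sits where mRNA enters the small subunit, showed the same division. Its brightest probe set gave 2372.1, 1990.5 and 1986.6 with HuD, 4191.8 and 6044.4 with IgG and 4254.8 in the input, a difference of −1.24 ± 0.25 (adjusted p = 0.0155 among probe sets). A second one gave 1030.3, 844.3 and 1044.6 with HuD, 417.8 and 484.5 with IgG and 266.2 in the input, a difference of 1.05 ± 0.22 (adjusted p = 0.0160). The HuD and IgG arrays did not overlap in either, and they ran in opposite directions. With the probe sets of a gene averaged, Rps20 was at −0.004 and Rps3 at 0.10 and neither passed. Which transcripts these probe sets read is not stated in the files used here.

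**Figure D5:**
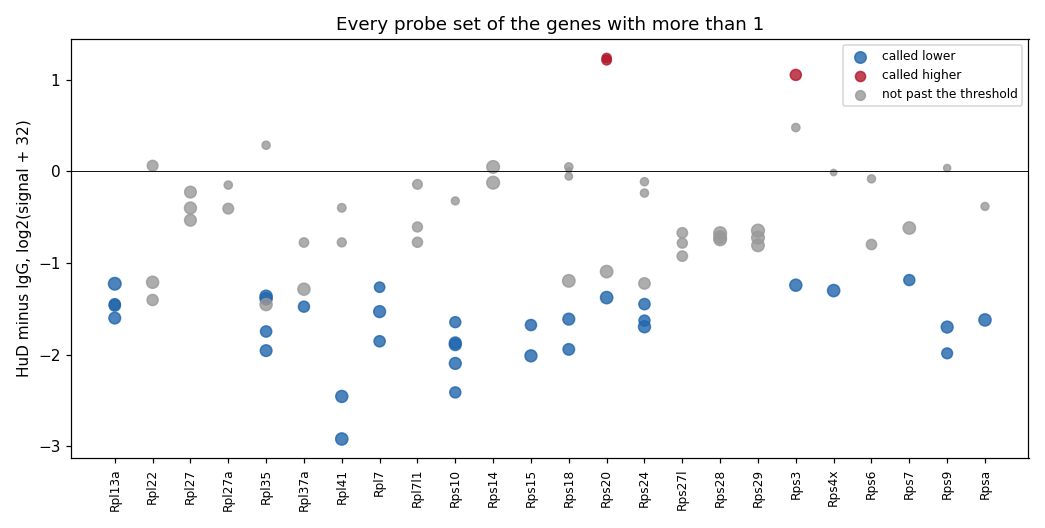
HuD minus IgG on the log2(signal + 32) scale for every probe set of the 24 ribosomal protein genes with more than 1, coloured by call (blue lower, red higher, grey not past the threshold), with larger points for brighter probe sets. The 3 red points belong to Rps20 and Rps3, at 1.05 to 1.24, and all blue points lie below −1.

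Ribosomal protein genes have many near-identical pseudogenes, and 110 further probe sets carried a ribosomal symbol together with another one, so no gene is named from them. They covered 43 such symbols, 28 of which had no probe set of their own. In a fit over all 45037 probe sets, 54 of the 110 were called lower and 0 higher, against 8.7% and 5.73% of all, with a median of −1.23. Among the 22519 probe sets at or above the median mean level, which held 98 of the 110 and all 54 calls, 15.2% of all were lower and 11.1% higher. On this type of array the letter x in a probe set's name marks probes that can match other sequences. Of the bright member probe sets 36 had it, and 20 of them were lower and 0 higher, with a median of −1.32. Of these 36, 16 were the probe sets that represented a tested member. Of the 1060 bright x probe sets of all genes 36.1% were lower and 8.3% higher, with a median of −0.73. The 28 with the letter a, which share probes between transcripts of 1 gene, had a median of −1.46, with 21 lower and 1 higher, against a median of −0.56, 31% lower and 10.5% higher for all of that kind. The 16 without a letter had a median of −0.71, with 5 lower and 1 higher, against a median of −0.10, 16.3% lower and 19.4% higher for all. The part of cross-hybridisation in these values was not tested.

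The starts of the genes are shown because a terminal oligopyrimidine stretch is what the mRNAs of this group are known to share, a feature the choice of members did not use. RefSeq promoter windows (GRCm38.p6) were found for 38 of the 44 tested members. A C at the annotated start followed by at least 4 bases that are each C or T stood at 15.6% of the 45 annotated starts of tested members, in 7 genes, and at 2.21% of the 21262 starts of all protein-coding genes. Within 5 bases of the start on either side it was found at 42.2% and 18.6%. The stretch was sought on the strand that has the same sequence as the RNA, since it is a feature of the RNA, and not on the other strand. The lines below give 10 bases before the annotated start and 20 from it, 5′ to 3′, with the stretch in capitals where one was found. The first 4 genes fell against IgG, and the next 2 did not pass the threshold.
Rplp2 (chr7:141447641-141447670, plus strand): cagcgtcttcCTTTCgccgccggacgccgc
Rps10 (chr17:27635225-27635254, minus strand): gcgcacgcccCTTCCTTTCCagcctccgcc
Rpl35 (chr2:39005112-39005141, minus strand): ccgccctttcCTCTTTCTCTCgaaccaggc
Rps18 (chr17:33955646-33955675, minus strand): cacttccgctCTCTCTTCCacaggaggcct
Rps6 (chr4:86857348-86857377, minus strand): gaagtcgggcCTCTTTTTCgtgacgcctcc
Rpl38 (chr11:114668570-114668599, plus strand): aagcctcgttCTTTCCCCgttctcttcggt
No such stretch was found within 5 bases of the annotated start of the genes with the largest falls, Rpl41 and Rps15, or of Rps25, which did not fall.
Rpl41 (chr10:128549149-128549178, minus strand): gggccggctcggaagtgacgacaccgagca
Rps15 (chr10:80292421-80292450, plus strand): cagagctcgcgataactgcgcaagcgcagc
Rps25 (chr9:44407704-44407733, plus strand): ccgacatcttagcgaggctgctgtggtcta

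The 7 members with the stretch at the start had a median difference between HuD and IgG of −1.20 (range −1.93 to −0.73), with 5 lower. The 31 without it had a median of −1.39 (range −2.92 to 0.26), with 25 lower, and held both the largest fall and the 1 positive difference. With the wider window the medians were −1.37 for 18 members and −1.40 for 20. An annotated start can lie some bases from the start used in these cells, so a missing match says only that these letters are not in the window.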

How the data were processed

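RNA from mouse hippocampus was measured on 6 arrays, 3 of HuD pulldown, 2 of IgG pulldown and 1 of input, grouped by the labels. The deposited table held 1 linear intensity per probe set for 45101 probe sets; how the authors made these intensities is not given in the sources used here, and the values showed that they had scaled each array to a common trimmed mean. After 64 array controls were left out, 34945 probe sets had 1 gene symbol in the platform annotation, 932 had several and 9160 none, and only the first kind was named. Each gene was represented by the probe set whose mean log2 signal across the 6 arrays was highest, and genes above the median of these means were tested. log2(signal + 32) was fitted with limma 3.58.1 in R 4.3.3 (lmFit and eBayes with a trend, 3 residual and 8.4 prior degrees of freedom, 1 mean per group, no block). The 49 members, the lists of other translation genes and the rule for named genes (the 8 large and 6 small subunit genes with the largest differences, the 4 nearest to 0, paralogs, genes with probe sets called in opposite directions and the 5 extremes of each input comparison) were chosen with earlier results of these data known. Rpl7, Rpl13a, Rpl22, Rpl27a, Rpl35, Rps7, Rps18, Rps19 and Rps26 were added after their values were seen. Alternatives were a pseudocount of 8, 3 other scalings, no filter, averaged probe sets, the title suffix as a block, no trend and each replicate left out, and, added after seeing the data, a fit without the input. The fit was tested on simulated data in which 200 of 9097 genes were lowered. That is far fewer than the 55.5% called in either direction between HuD and IgG. It recovered 17.1% of the 2-fold and 96.6% of the 4-fold changes. The number of arrays limits the precision. Protein length and composition, which had been planned, were not analysed here.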

Additional observations from a re-analysis of the deposited data

How the results depend on the processing

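No member rose against IgG under any of the 14 other settings, and the number that fell, with the share of all tested genes in brackets, was 24 with 75th percentile centring (18.7%), 28 without the filter (15%), 29 with median centring (26%) or averaged probe sets (32.9%), 32 without a trend (33.7%), 33 with quantile normalization (25.1%) and 34 with a pseudocount of 8 (33.5%) or without the input (33.9%). Centring on the 75th percentile moved the median of all tested genes from −0.28 to 0.035. Relative to it the members' median was −1.08 before and after. That is so by construction, since centring shifts every gene of an array by the same amount. Leaving out 1 replicate gave 25 to 39 falls against IgG, 14 to 21 in the large and 11 to 18 in the small subunit, with medians of −1.74 to −0.88, or −1.50 to −0.61 relative to all genes, the extremes being without IgG array 1 and without IgG array 2. Against the input 5 fell and 1 rose with 75th percentile centring, 8 fell without the filter, and 1 rose with quantile normalization, where the median relative to all genes was −1.17. Without 1 replicate 10 to 28 fell and 0 to 1 rose against the input, the lowest without HuD array 1. The median of IgG minus input was −0.032 to 0.928 without 1 replicate, and 0.035 to 0.993 relative to all genes. Within suffix le1 the medians were −0.88 for HuD minus IgG (−0.61 relative to all genes) and −0.032 for IgG minus input (0.035). The cause of these shifts was not tested.

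Among the members named by the rule, those whose sign turned, with no call in the turned direction, were Rpl39 (0.064 with 75th percentile centring and 0.065 with quantile normalization), Rps14 (0.19 with 75th percentile centring, 0.029 with median centring, −0.477 to 0.231 without 1 replicate, the positive ones 0.08 without HuD array 1 and 0.231 without IgG array 2), Rps3 (0.10 with averaged probe sets), and Rpl27 (0.281) and Rps27l (0.352) without IgG array 2, against −1.694 for Rps27l without IgG array 1. Rpl27a, named outside the rule, was at 0.36 without IgG array 2. Of 434 values of named members under other settings 374 kept direction and side of the threshold, 42 lost the call, 9 gained it and 9 turned.

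With the title suffix as a replicate block 37 members fell against IgG, including all 34, and 32.2% of all tested genes. The suffix was not treated as a pairing, since the labels give no paired design. Deviations of HuD and IgG arrays with the same suffix correlated at −0.03, −0.34 and 0.40 across genes. The 2 IgG arrays mirror each other around their mean, so these values cannot show whether the suffix marks a pairing. With 2 IgG arrays and 1 input array, the number of arrays limits the precision. No signal was compared with a local background, which the table did not hold.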
